A study of Homo sapiens with 8 samples.

Results

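The genes described here are 10 genes of the amino acid response governed by the transcription factor ATF4, out of 31721 Ensembl genes in the deposited FPKM table. They were chosen by name, without a rule on measured values but with earlier results of these data known. The genes are ATF4, DDIT3, TRIB3, CHAC1, ASNS, PSAT1, PHGDH, SLC7A11, SLC7A5 and SLC3A2. All 10 were found in the table. A2780, an established human ovarian carcinoma line, was cultured for 24 hours with olaparib (an inhibitor of the DNA repair enzymes PARP1 and PARP2), with palbociclib (an inhibitor of the cell cycle kinases CDK4 and CDK6), with olaparib and palbociclib together, or with the solvent DMSO. PolyA RNA was sequenced from 2 libraries of each treatment, which the series' design text calls biological repeats without naming separate cultures. P-values therefore cover only the spread among these libraries, and that spread may be technical. The sources used here give no drug doses, and all groups are the same cell line.

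ATF4 is a basic leucine zipper factor. When amino acids run short, or when unfolded protein, viral RNA or haem shortage activates another eIF2α kinase, phosphorylation of eIF2α lowers general translation but raises translation of the ATF4 mRNA through upstream open reading frames in its leader. ATF4 then binds C/EBP-ATF response elements and raises genes that import or make amino acids, and in prolonged stress genes such as DDIT3 and CHAC1 that are linked to cell death. Since much of its control lies in translation and protein turnover, the ATF4 mRNA level is not a measure of ATF4 protein.

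The windows from 250 bases before to 50 bases after the RefSeq start sites (RefSeq promoter table, GRCh38.p14) were searched for the core of that element, TGATGNAA or its reverse complement TTNCATCA, on either strand. There were 16 windows for 9 of the 10 genes, and 3 genes held a match: ASNS, CHAC1 and SLC3A2. Over all 27305 genes with a window, 4.46% held a match, and over all 35116 windows 3.62% did. A gene with more windows has more places for a match, and the numbers of windows per gene differ (16 for 9 genes, 35116 for 27305). The stricter form TGATGCAA or TTGCATCA, which is contained in the core, was found in CHAC1 and in 1.08% of all genes. The ASNS match began 68 bases before the start site, within the promoter stretch known as the nutrient-sensing response element, and the CHAC1 match began 209 bases before its start site. The SLC3A2 match began at base 38 after 1 of its 3 start sites. A match is a description of the letters, and a window without a match says only that these letters are not in it. The 250 bases before the start site are shown for ASNS (chr7:97872409-97872658, minus strand) and CHAC1 (chr15:40953221-40953470, plus strand) because they hold a match. They are also shown for SLC7A5 (chr16:87869508-87869757, minus strand), which had the lowest fold changes of the 9 tested genes with palbociclib and with the combination. For SLC3A2, 20 bases around the match are shown (chr11:62881729-62881748, plus strand). Capitals mark the match, 5′ to 3′.
ASNS: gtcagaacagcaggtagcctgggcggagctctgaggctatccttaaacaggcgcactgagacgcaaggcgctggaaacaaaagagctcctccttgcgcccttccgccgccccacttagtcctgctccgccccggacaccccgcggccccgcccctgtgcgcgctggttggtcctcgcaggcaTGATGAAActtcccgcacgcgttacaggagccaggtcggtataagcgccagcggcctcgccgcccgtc
CHAC1: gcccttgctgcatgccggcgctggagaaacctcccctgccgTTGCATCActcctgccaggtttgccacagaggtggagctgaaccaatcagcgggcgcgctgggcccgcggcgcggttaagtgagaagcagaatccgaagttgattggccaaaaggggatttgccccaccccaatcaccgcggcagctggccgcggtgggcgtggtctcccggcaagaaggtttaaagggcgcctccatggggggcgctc
SLC7A5: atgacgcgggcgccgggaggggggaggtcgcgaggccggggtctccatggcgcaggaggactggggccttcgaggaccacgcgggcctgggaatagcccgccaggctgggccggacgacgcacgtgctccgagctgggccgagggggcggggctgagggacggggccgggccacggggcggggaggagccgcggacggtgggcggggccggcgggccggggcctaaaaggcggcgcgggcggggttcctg
SLC3A2: ggactccTTACATCAgctcc

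Whole reads behind the FPKM values gave depths of 20566089 to 34056976 reads per library. Of 9 ovarian epithelial markers in the table, 0 reached a mean of 1 FPKM. Their summed level was 0.834 to 0.969 FPKM with olaparib, 1.58 to 1.65 with palbociclib and 1.96 in both combination libraries, against 0.628 to 0.721 in DMSO, so the sum differed between treatments at a very low level, and its part in the results was not tested. KRT7 was not analysed here. The 4 fibroblast and muscle markers each passed 1 FPKM, led by LUM at a mean of 44.0 FPKM. Their summed level was 49.3 to 52.3 FPKM with olaparib and 55.7 to 61.4 with palbociclib. It was 54.1 to 56.05 with the combination, against 57.1 to 58.3 in DMSO. Its part in the results was not tested either. The 3 leukocyte and 3 endothelial markers in the table stayed below a mean of 1 FPKM each. In bulk RNA a change in the share of cells in a given state and a change in RNA per cell cannot be told apart.

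FPKM scales reads by gene length and library, so levels can be set side by side between genes, given the lengths used. Whole reads were found with 5622 bases for PHGDH, against a GENCODE exon length of 9217. For DDIT3 they were found with 1266 bases against 1307. The order below rests on the lengths behind the deposited values. PSAT1 was the most abundant of the 10 genes, with a mean of 146.8 FPKM over the 8 libraries, followed by ATF4 (102.7), SLC7A5 (83.8), PHGDH (40.2), SLC3A2 (28.1) and ASNS (8.80). DDIT3 (3.41), TRIB3 (2.93), CHAC1 (1.55) and SLC7A11 (0.239) were low. The ranges of ATF4 and SLC7A5 over the libraries overlapped, as did those of DDIT3 and TRIB3 and those of TRIB3 and CHAC1. The ranges of PHGDH and SLC3A2 overlapped too. The low genes rest on few reads: 75 to 143 per library for DDIT3, 152 to 438 for TRIB3, 41 to 140 for CHAC1 and 40 to 94 for SLC7A11. ATF4 had 4891 to 10462 reads per library. The 9 genes with a mean of at least 1 FPKM were tested among 12443 genes, and SLC7A11 fell under that filter.

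**Figure D1:**
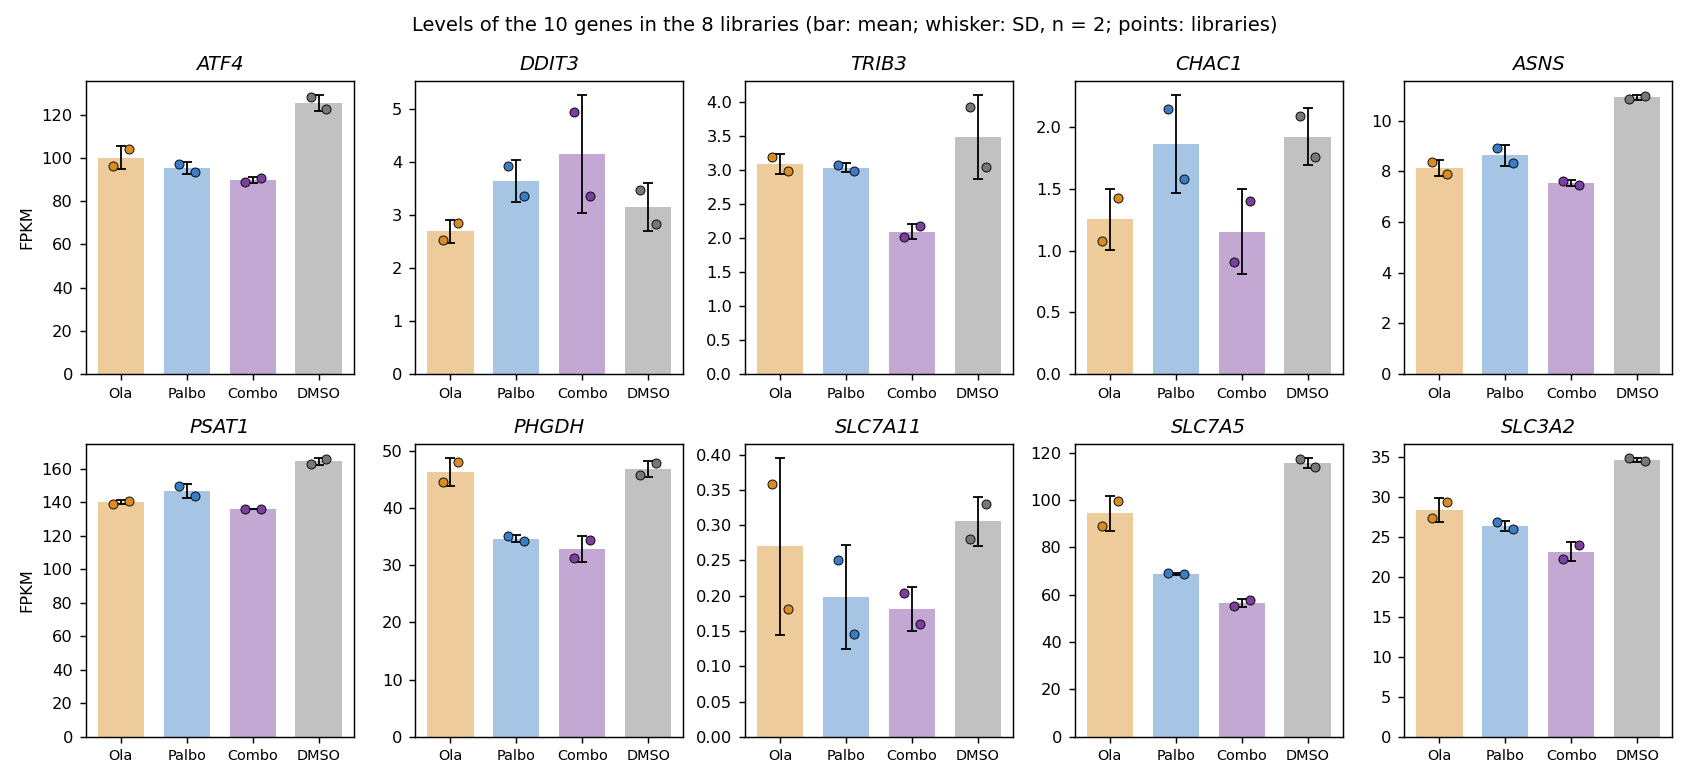
FPKM (vertical axes, each from 0) of the 10 genes with olaparib (Ola), palbociclib (Palbo), the combination (Combo) and DMSO. Bars are means, whiskers SD (n = 2) and points single libraries. SLC7A5 averages 56.5 FPKM with the combination and 115.6 FPKM in DMSO, while DDIT3 averages 4.16 FPKM with the combination and 3.16 FPKM in DMSO, with overlapping libraries.

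ATF4 itself, on chromosome 22 at 39519695 to 39522685 (GENCODE v29, GRCh38, as for all gene positions here), was lower with each treatment than in DMSO. It stood at 96.4 and 104 FPKM with olaparib, 97.2 and 93.4 FPKM with palbociclib and 88.9 and 90.8 FPKM with the combination, against 128 and 123 FPKM in DMSO. No treated library reached the lower DMSO library. The difference on the scale of log2(FPKM + 1) was −0.32 ± 0.05 with olaparib (SE, limma adjusted p = 0.0131), −0.39 ± 0.05 with palbociclib (limma adjusted p = 0.000589) and −0.48 ± 0.05 with the combination (limma adjusted p = 0.000168). These 3 comparisons share the DMSO libraries. The olaparib call was lost without either DMSO replicate or either olaparib replicate, where the adjusted p reached at most 0.0964. The other 2 calls held in every setting run.

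Among the stress effectors, TRIB3 and CHAC1 fell with the combination against DMSO, and the CHAC1 call was lost in several settings. DDIT3 was higher with the combination than in DMSO without passing. DDIT3 (chromosome 12, 57516588 to 57521737) encodes CHOP, a C/EBP family factor linked to death under prolonged stress. Its level was 2.53 and 2.85 FPKM with olaparib, 3.92 and 3.37 FPKM with palbociclib and 4.94 and 3.37 FPKM with the combination, against 3.47 and 2.84 FPKM in DMSO. Each treated group overlapped DMSO, and the combination libraries differed more than those of any other group. The log2 differences were −0.17 ± 0.15 with olaparib, 0.16 ± 0.15 with palbociclib and 0.30 ± 0.15 with the combination (limma adjusted p = 0.492, 0.406 and 0.131). Without combination replicate 2 the last became 0.52 and passed (limma adjusted p = 0.014), so its call turns on that library. The span of DDIT3 overlaps those of MARS and MBD6 on the other strand and of the miRNA gene MIR616. The sources used here do not give whether strand was used in counting. Whether reads of these genes entered the DDIT3 level was not tested.

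TRIB3 (chromosome 20, 362835 to 397559) encodes a pseudokinase that feeds back on ATF4 and binds AKT. It stood at 3.20 and 2.99 FPKM with olaparib, 3.08 and 2.99 FPKM with palbociclib and 2.02 and 2.17 FPKM with the combination, against 3.92 and 3.05 FPKM in DMSO. Only the combination libraries lay below all other libraries. The log2 difference was −0.53 ± 0.09 with the combination (limma adjusted p = 0.00261), and it passed in every setting run, from −0.39 to −0.72. With either single drug TRIB3 did not pass (−0.12 ± 0.09 with olaparib and −0.15 ± 0.09 with palbociclib, limma adjusted p = 0.408 and 0.234). Without DMSO replicate 2 the palbociclib value became −0.29 and passed (limma adjusted p = 0.0313).

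CHAC1 (chromosome 15, 40952962 to 40956519) encodes an enzyme that cleaves glutathione, and its window above holds a match to the strict form. Its level was 1.08 and 1.43 FPKM with olaparib, 2.15 and 1.58 FPKM with palbociclib and 0.910 and 1.40 FPKM with the combination, against 2.09 and 1.76 FPKM in DMSO. The libraries with olaparib, alone or combined, lay below both DMSO libraries, and palbociclib overlapped DMSO. The log2 difference was −0.45 ± 0.15 with the combination (limma adjusted p = 0.0413), −0.38 ± 0.15 with olaparib (limma adjusted p = 0.142) and −0.03 ± 0.15 with palbociclib (limma adjusted p = 0.869). The combination call was lost without either DMSO replicate or combination replicate 1, under TPM scaling and with a looser filter or none (limma adjusted p up to 0.196). With limma's voom on recovered reads the olaparib value passed (−0.61, adjusted p = 0.0426).

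Of the amino acid synthesis genes, ASNS and PSAT1 fell with each treatment, and PHGDH fell with palbociclib and with the combination. ASNS (chromosome 7, 97852118 to 97872542) encodes asparagine synthetase. It stood at 8.37 and 7.90 FPKM with olaparib, 8.93 and 8.33 FPKM with palbociclib and 7.61 and 7.46 FPKM with the combination, against 10.84 and 10.98 FPKM in DMSO. No treated library overlapped DMSO. The log2 difference was −0.38 ± 0.05 with olaparib (limma adjusted p = 0.0112), −0.31 ± 0.05 with palbociclib (limma adjusted p = 0.0016) and −0.48 ± 0.05 with the combination (limma adjusted p = 0.000154). Leaving out either DMSO replicate or olaparib replicate 2 ended the olaparib call (limma adjusted p up to 0.0954).

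PHGDH and PSAT1 catalyse the first and the next step of serine synthesis from a glycolytic intermediate. PSAT1 (chromosome 9, 78297143 to 78330093) stood at 139 and 141 FPKM with olaparib, 149.6 and 144 FPKM with palbociclib and 136 FPKM in both combination libraries, against 163 and 166 FPKM in DMSO. All treated libraries were below both DMSO libraries. The log2 differences were small, at −0.23 ± 0.03 with olaparib, −0.16 ± 0.03 with palbociclib and −0.27 ± 0.03 with the combination (limma adjusted p = 0.0132, 0.00671 and 0.000509). Quantile normalisation ended all 3 calls and turned the palbociclib value to 0.03, TPM ended the palbociclib call, and so did leaving out DMSO replicate 2. Leaving out any 1 of the DMSO and olaparib libraries ended the olaparib call (limma adjusted p up to 0.103).

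PHGDH (chromosome 1, 119648411 to 119744226) fell with palbociclib and the combination and did not pass with olaparib. It stood at 44.6 and 48.1 FPKM with olaparib, 35.03 and 34.18 FPKM with palbociclib and 31.3 and 34.4 FPKM with the combination, against 45.8 and 47.9 FPKM in DMSO. The olaparib libraries bracketed those of DMSO, while palbociclib and combination libraries lay below both. The log2 difference was −0.43 ± 0.06 with palbociclib (limma adjusted p = 0.000994) and −0.50 ± 0.06 with the combination (limma adjusted p = 0.000338), and both held in every setting run. With olaparib it was −0.01 ± 0.06, with a 95% interval of −0.15 to 0.12 (limma adjusted p = 0.892). The ratio of PSAT1 to PHGDH within a library was 3.03 ± 0.13 with olaparib, 4.24 ± 0.04 with palbociclib and 4.15 ± 0.28 with the combination, against 3.51 ± 0.06 in DMSO (SD, n = 2 each). The olaparib ratios lay below, and the palbociclib and combination ratios above, both DMSO ratios, which was not tested further.

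Of the 9 tested genes, the transporter gene SLC7A5 had the lowest log2 difference with palbociclib and with the combination. SLC7A5 (chromosome 16, 87830023 to 87869488) encodes LAT1, which exchanges large neutral amino acids such as leucine, and SLC3A2 (chromosome 11, 62856102 to 62888875) encodes the heavy chain 4F2hc that carries LAT1 and the cystine carrier SLC7A11 to the cell surface. SLC7A5 stood at 89.2 and 99.5 FPKM with olaparib, 69.1 and 68.5 FPKM with palbociclib and 55.3 and 57.7 FPKM with the combination, against 117 and 114 FPKM in DMSO. The 4 groups did not overlap each other. Its log2 difference was −0.29 ± 0.05 with olaparib (limma adjusted p = 0.0208), −0.74 ± 0.05 with palbociclib (limma adjusted p = 9.12e-05) and −1.02 ± 0.05 with the combination (limma adjusted p = 1.96e-05). The palbociclib and combination values passed in every setting run, from −0.52 to −0.76 and from −0.73 to −1.05. The olaparib call was lost under quantile normalisation, with no filter, and without any 1 of the DMSO and olaparib libraries (limma adjusted p up to 0.119). The partial copy SLC7A5P1 held 8.93 to 15.5 FPKM over the libraries, and the sources used here do not say how reads shared with it were assigned.

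SLC3A2 also fell with each treatment. It stood at 27.4 and 29.4 FPKM with olaparib, 26.8 and 25.9 FPKM with palbociclib and 22.3 and 24.0 FPKM with the combination, against 34.8 and 34.5 FPKM in DMSO. No treated library overlapped DMSO. The log2 difference was −0.28 ± 0.05 with olaparib, −0.38 ± 0.05 with palbociclib and −0.56 ± 0.05 with the combination (limma adjusted p = 0.0196, 0.000883 and 0.000108). The olaparib call was lost with no filter and without any 1 of the same 4 libraries (limma adjusted p up to 0.111). The ratio of SLC7A5 to SLC3A2 within a library was 3.32 ± 0.09 with olaparib, 2.61 ± 0.05 with palbociclib and 2.44 ± 0.05 with the combination, against 3.34 ± 0.04 in DMSO (SD, n = 2 each). The palbociclib and combination ratios lay below all ratios of the other 2 groups, and those with olaparib bracketed DMSO.

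SLC7A11 (chromosome 4, 138164097 to 138242349), the cystine-glutamate exchanger xCT, was barely detected. Its level was 0.359 and 0.182 FPKM with olaparib, 0.250 and 0.146 FPKM with palbociclib and 0.204 and 0.160 FPKM with the combination, against 0.281 and 0.330 FPKM in DMSO. Palbociclib and combination libraries lay below both DMSO libraries, and those with olaparib lay on either side. With the filter lowered to a mean of 0.1 FPKM, limma gave −0.04 ± 0.10, −0.12 ± 0.10 and −0.14 ± 0.10 for the same 3 treatments (adjusted p = 0.879, 0.416 and 0.322), so none passed. The pseudocount of 1 shrinks differences at such levels strongly, and the part of depth was not tested.

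**Figure D2:**
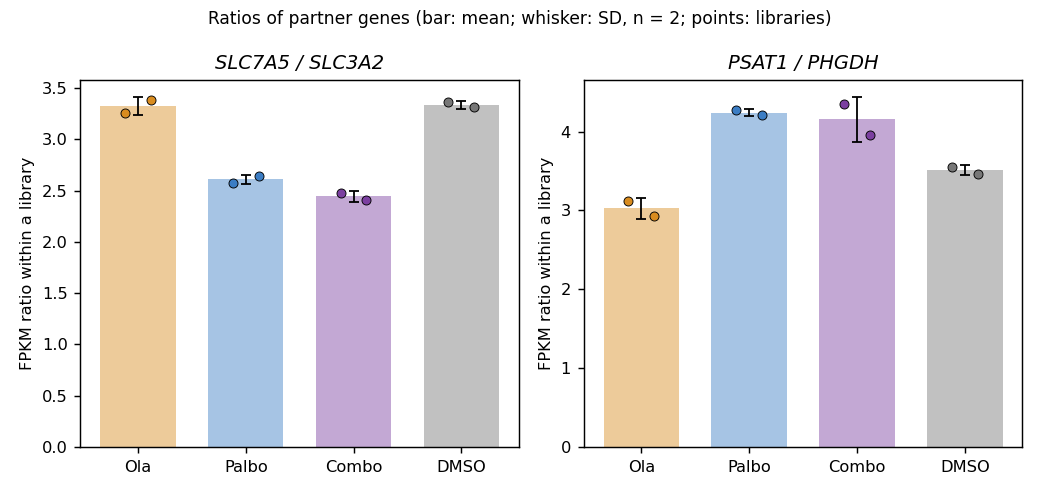
FPKM ratios within a library (vertical axes, each from 0) of SLC7A5 to SLC3A2 (left) and PSAT1 to PHGDH (right) with olaparib (Ola), palbociclib (Palbo), the combination (Combo) and DMSO. Bars are means, whiskers SD (n = 2) and points libraries. The SLC7A5 to SLC3A2 ratio averages 2.44 with the combination and 3.34 in DMSO.

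Counted by treatment, 5 of the 9 tested genes fell with olaparib and 4 did not pass, where limma called 10.5% of all tested genes lower. With palbociclib 6 fell and 3 did not pass, against 31.4% of all tested genes called lower, and with the combination 8 fell and 1 did not pass, against 35.3%. The olaparib count was 0 without DMSO replicate 1, DMSO replicate 2 or olaparib replicate 2, 1 without olaparib replicate 1, and 3 under quantile normalisation. Over all 12443 tested genes, where 1307 were lower, leaving out DMSO replicate 1 left 0 lower calls, leaving out DMSO replicate 2 left 6, leaving out olaparib replicate 2 left 10, and leaving out olaparib replicate 1 left 136. Quantile normalisation gave 398. The median log2 difference of the 9 genes was −0.28 with olaparib, −0.31 with palbociclib and −0.48 with the combination, beside −0.03, −0.05 and −0.06 over all tested genes. Both treated libraries lay below both DMSO libraries for 6, 6 and 8 of the 9 genes in the same order, where 38.6%, 46.3% and 46.9% of all tested genes did so. Of all calls, 28.2% were higher with olaparib, 37.3% with palbociclib and 37.8% with the combination, which became 66.5%, 56.1% and 57.4% under TPM. TPM moved the median of all tested genes by 0.12 for the combination, and the 8 genes that fell with the combination stayed negative under it.

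**Figure D3:**
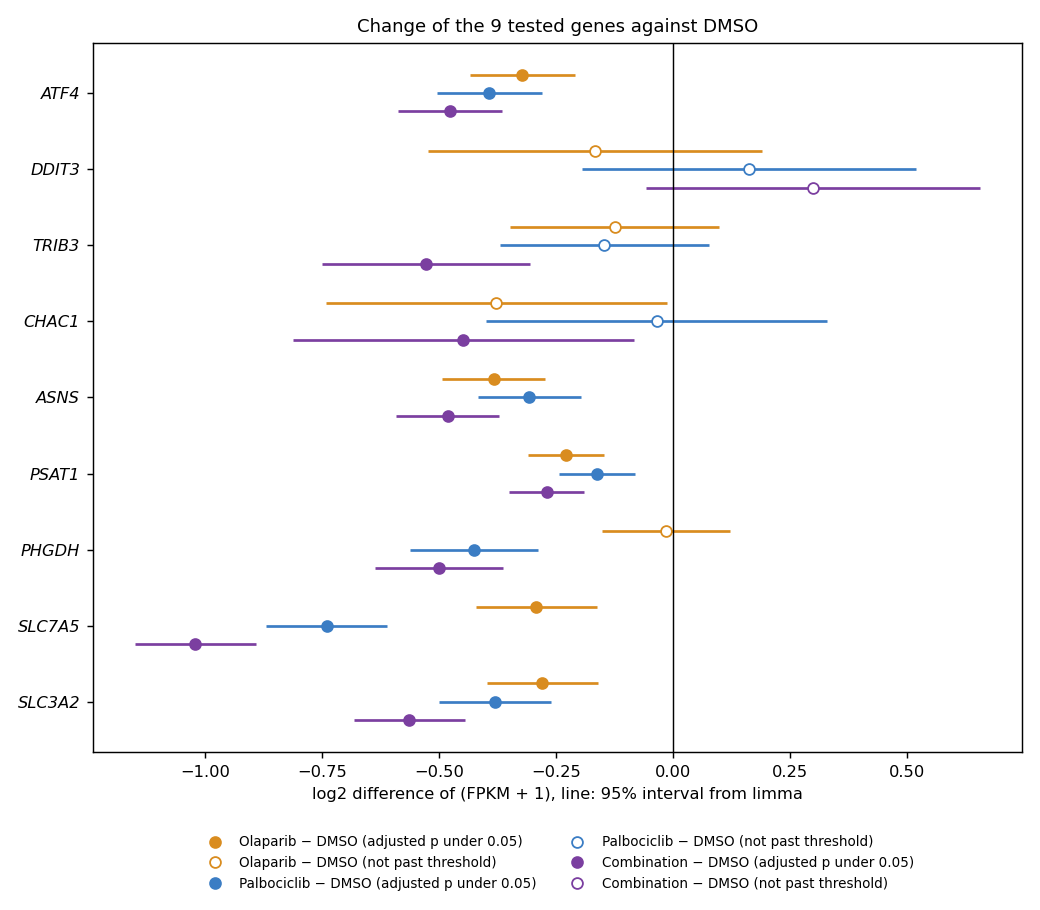
Log2 differences of (FPKM + 1) against DMSO (horizontal axis) for the 9 tested genes with olaparib, palbociclib and the combination. Lines are 95% intervals from limma, and filled points have an adjusted p under 0.05. SLC7A5 with the combination lies furthest left at −1.02, and DDIT3 with the combination lies right of 0 at 0.30 with an open point.

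The combination was then set against each single drug. Against olaparib alone, 5 of the 9 genes fell, 1 rose and 3 did not pass, where limma called 27.4% of all tested genes lower and 17% higher. SLC7A5 fell by 0.73 ± 0.05, PHGDH by 0.49 ± 0.06, TRIB3 by 0.40 ± 0.09, SLC3A2 by 0.28 ± 0.05 and ATF4 by 0.15 ± 0.05 on the log2 scale (limma adjusted p = 0.000145, 0.000778, 0.0125, 0.00402 and 0.0338). The ATF4 value turned to 0.06 under quantile normalisation and its call was lost in 11 of 17 other settings, that one included. The TRIB3 call was lost with no filter and without olaparib replicate 1 or combination replicate 1. DDIT3 was higher by 0.47 ± 0.15 (limma adjusted p = 0.0417), a call lost in 12 of 17 other settings, among them leaving out any library except combination replicate 2. ASNS, PSAT1 and CHAC1 had −0.10 ± 0.05, −0.04 ± 0.03 and −0.07 ± 0.15 and did not pass. The combination libraries lay below both olaparib libraries for 7 of the 9 genes and above them for DDIT3, where 41.9% and 30.1% of all tested genes lay below and above.

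Against palbociclib alone, limma called 0 of the 9 genes and 0.0241% of all tested genes. At an unadjusted p under 0.05 there were 6 of the 9, against 16.6% of all tested genes, and all 6 were lower: TRIB3, CHAC1, ASNS, PSAT1, SLC7A5 and SLC3A2. That count was 2 without palbociclib replicate 1, and 5 to 8 without any 1 of the other libraries. SLC7A5 had −0.28 ± 0.05 (limma adjusted p = 0.13) and TRIB3 −0.38 ± 0.09 (limma adjusted p = 0.163), and these 2 passed with voom on recovered reads (adjusted p = 0.00491 and 0.045). ATF4 had −0.08 ± 0.05, with a 95% interval of −0.20 to 0.03 (limma adjusted p = 0.418). Both combination libraries lay below both palbociclib libraries for 7 of the 9 genes, where 29.1% of all tested genes did so.

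The departure from additivity is the olaparib effect in the presence of palbociclib minus that in its absence. Limma called 0 of the 9 genes, voom called 0, and limma called 0.00804% of all tested genes. At an unadjusted p under 0.05 there were 3 of the 9, ATF4, ASNS and PSAT1, against 10.6% of all tested genes. That count was 1 without olaparib replicate 2 or palbociclib replicate 2, and 2 or 3 without any 1 of the other libraries. ATF4 had 0.24 ± 0.07 with a 95% interval of 0.08 to 0.40 (limma adjusted p = 0.441) and ASNS 0.21 ± 0.07 with 0.05 to 0.36 (limma adjusted p = 0.447), where a positive value means a smaller decrease than the sum of the single effects. SLC7A5 had 0.01 ± 0.08, with an interval of −0.17 to 0.19, and PHGDH −0.06 ± 0.08, with −0.25 to 0.13. The intervals of DDIT3 (−0.20 to 0.81) and CHAC1 (−0.55 to 0.48) included both signs and were the widest of the 9.

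**Figure D4:**
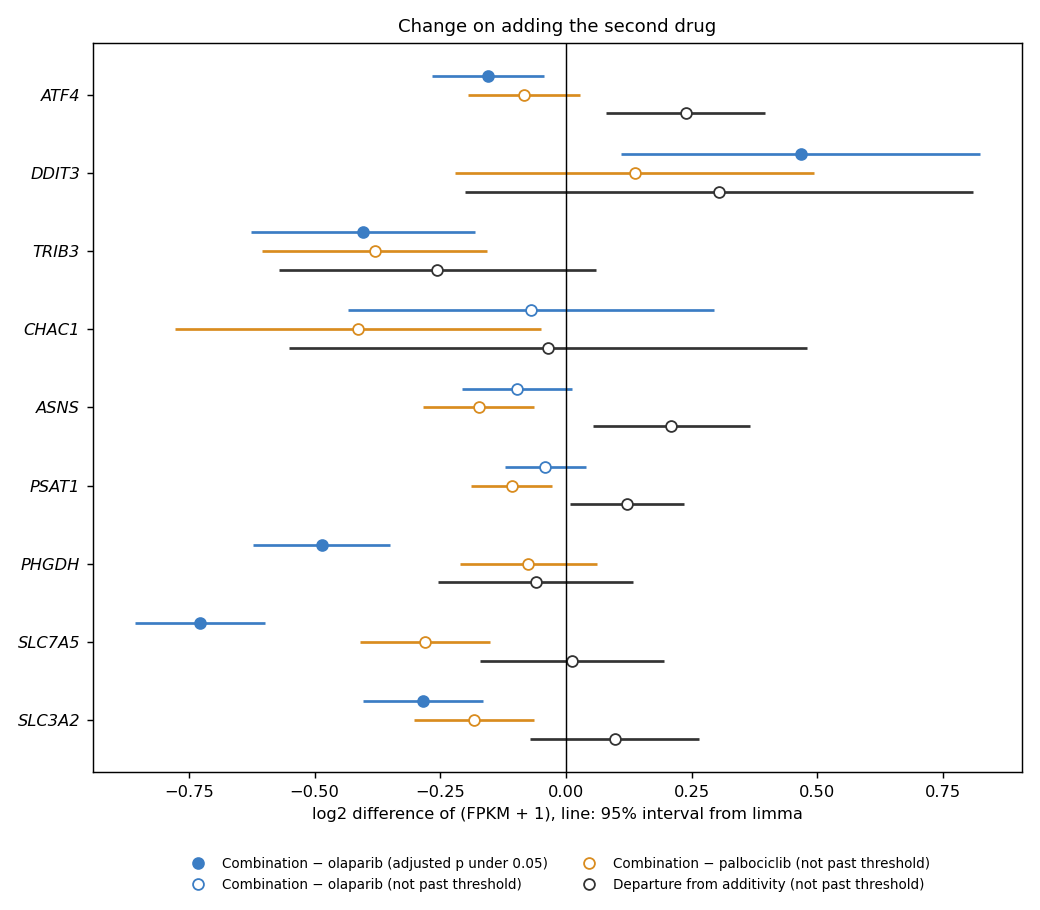
Log2 differences of (FPKM + 1) (horizontal axis) for the 9 tested genes between the combination and olaparib, between the combination and palbociclib, and for the departure from additivity. Lines are 95% intervals from limma, and filled points have an adjusted p under 0.05. All filled points belong to the comparison of the combination with olaparib, from SLC7A5 at −0.73 to DDIT3 at 0.47.

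Other genes of the pathway were counted in 9 further lists, set beside a background over all tested genes of 10.5% called lower and 4.13% higher with olaparib, 31.4% lower and 18.7% higher with palbociclib, and 35.3% lower and 21.5% higher with the combination. Upstream, the eIF2 control list holds the eIF2α kinases and their regulators, the eIF2 and eIF2B subunits and the phosphatase subunits. Of its 18 genes, 5 fell with olaparib, 11 fell and 2 rose with palbociclib, and 12 fell and 2 rose with the combination. EIF2S1, which encodes eIF2α itself, had −0.32 ± 0.06, −0.63 ± 0.06 and −0.77 ± 0.06 in that order. PPP1R15A (GADD34), the stress-induced subunit that directs a phosphatase to eIF2α and is itself a known ATF4 target, rose by 0.60 ± 0.06 with palbociclib and 0.66 ± 0.06 with the combination (limma adjusted p = 0.000232 and 0.000103). Its level was 7.76 and 7.60 FPKM with palbociclib and 8.12 and 7.91 FPKM with the combination, against 4.70 and 4.74 FPKM in DMSO. Of 7 tested genes for bZIP factors that pair with or resemble ATF4, 2, 4 and 5 fell with the 3 treatments. CEBPG, a dimer partner of ATF4, had −0.24 ± 0.05, −0.46 ± 0.05 and −0.61 ± 0.05.

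In most lists of amino acid supply, more differences against DMSO were negative than positive. The proline, aspartate and glutamine list was the exception with palbociclib, with 3 negative and 3 positive. The medians of all tested genes were negative as well. Of 11 tested serine and one-carbon genes, 4 fell and 1 rose with olaparib, 8 fell and 2 rose with palbociclib, and 8 fell and 3 rose with the combination. MTHFD2, a mitochondrial folate enzyme, had −0.36 ± 0.05, −0.65 ± 0.05 and −0.85 ± 0.05, and AMT, of the glycine cleavage system, rose by 0.66 ± 0.08 with palbociclib and 0.70 ± 0.08 with the combination. Of 10 other amino acid transporters, 2 fell with olaparib, and 5 fell and 2 rose with palbociclib as with the combination. SLC1A5, a glutamine carrier, had −0.74 ± 0.05 with palbociclib and −0.96 ± 0.05 with the combination. SLC38A2 (SNAT2), a sodium-coupled carrier raised by amino acid shortage, ran the other way. It stood at 189 and 187 FPKM with palbociclib and 195 and 178 FPKM with the combination, against 131 and 126 FPKM in DMSO (log2 difference 0.55 ± 0.05 and 0.54 ± 0.05, limma adjusted p = 0.000223 and 0.000155). Of 6 tested genes for proline, aspartate and glutamine, 3 fell with olaparib, 2 fell and 1 rose with palbociclib, and 3 fell with the combination, as ALDH18A1 did with −0.19 ± 0.04, −0.24 ± 0.04 and −0.37 ± 0.04. Of 20 aminoacyl-tRNA synthetase genes, 15, 16 and 18 fell with the 3 treatments, and 1 (QARS) rose with palbociclib and with the combination.

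Other reported ATF4 targets were divided. Of 12 tested, 1 fell and 4 rose with olaparib, 6 fell and 4 rose with palbociclib, and 6 fell and 6 rose with the combination. XPOT, the tRNA exporter, had −0.30 ± 0.04, −0.47 ± 0.04 and −0.64 ± 0.04, and STC2 had −0.63 ± 0.06 with palbociclib and −0.82 ± 0.06 with the combination. SESN2, GDF15 and DDIT4, which p53 also activates, were among those that rose with olaparib and with palbociclib. SESN2 stood at 30.4 and 33.5 FPKM with olaparib, 55.3 and 54.9 FPKM with palbociclib and 57.8 and 61.8 FPKM with the combination, against 21.3 and 20.5 FPKM in DMSO. GDF15 rose by 1.14 ± 0.12, 0.94 ± 0.12 and 1.39 ± 0.12 (limma adjusted p = 0.00858, 0.000736 and 9.47e-05).

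Neighbouring stress programmes were counted for comparison. Of 11 tested NRF2 and glutathione genes, 3 fell with olaparib, 4 fell and 2 rose with palbociclib, and 5 fell and 1 rose with the combination. The 4 of 11 lower with palbociclib lies near the background of 31.4%, as does the 2 of 6 of the proline, aspartate and glutamine list. Other counts lie near theirs too. With palbociclib 2 of 11 genes rose in this list and in the serine list, and 2 of 10 transporters (background 18.7%). With the combination 2 of 10 transporters rose (21.5%), and with olaparib 1 of 12 other ATF4 targets fell (10.5%). No list count was tested against its background. CHAC2, the constitutive relative of CHAC1, had −0.32 ± 0.06, −0.84 ± 0.06 and −1.01 ± 0.06. Of 17 genes of the other arms of the unfolded protein response, 6, 8 and 9 fell with the 3 treatments. SEL1L alone rose, with the combination. The log2 differences were negative for 16, 10 and 11 of the 17 genes and positive for 1, 7 and 6. HSPA5 (BiP), the main chaperone of the endoplasmic reticulum, stood at 189 and 186 FPKM with olaparib, 179 and 170 FPKM with palbociclib and 168 and 164 FPKM with the combination, against 220 and 217 FPKM in DMSO. HSPA5 was named with palbociclib and with the combination after its values were seen. The olaparib counts of the lists mostly fell when 1 DMSO or olaparib library was left out, as did the count over all tested genes. Such a fit keeps 1 library in a group, so the weight of a single library and the smaller sample cannot be told apart. Without any 1 of the DMSO and olaparib libraries, 0 to 5 synthetase genes fell, at most 1 gene fell in each of the other lists, and 0 to 3 of the other ATF4 targets rose.

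Scaling moved the counts of several lists by over 1.5 times. With olaparib, the counts that fell became, under quantile normalisation and under TPM, 3 and 3 for eIF2 control, 1 and 1 for the bZIP genes, 1 and 2 for serine and one-carbon genes, and 1 and 1 for proline, aspartate and glutamine. The other olaparib counts that fell became 7 and 10 for synthetases, 1 and 0 for NRF2 and glutathione genes, 2 and 3 for the unfolded protein response, and 1 and 2 for transporters. With palbociclib, 6 eIF2 control genes fell under either scaling, 5 serine and one-carbon genes fell under TPM, and 0 proline, aspartate and glutamine genes fell under quantile normalisation, while 2 of the last list rose under either. The unfolded protein response had 4 lower and 1 higher with palbociclib under quantile normalisation, and 5 lower and 4 higher under TPM. Its counts with the combination became 4 lower and 3 higher under quantile normalisation and 7 lower and 6 higher under TPM. With the combination, 7 eIF2 control genes fell under either scaling and 3 bZIP genes fell under TPM. NRF2 and glutathione genes that rose numbered 5 with palbociclib and 3 with the combination under quantile normalisation, and 4 with either under TPM. In the remaining lists, counts of genes that rose moved by at most 2 genes under these scalings. Single libraries also moved some counts. Without DMSO replicate 2, 7 eIF2 control genes and 5 serine and one-carbon genes fell with palbociclib, and the serine count was also 5 without palbociclib replicate 2. Other ATF4 targets that rose with the combination numbered 3 without DMSO replicate 1 or without combination replicate 2.

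**Figure D5:**
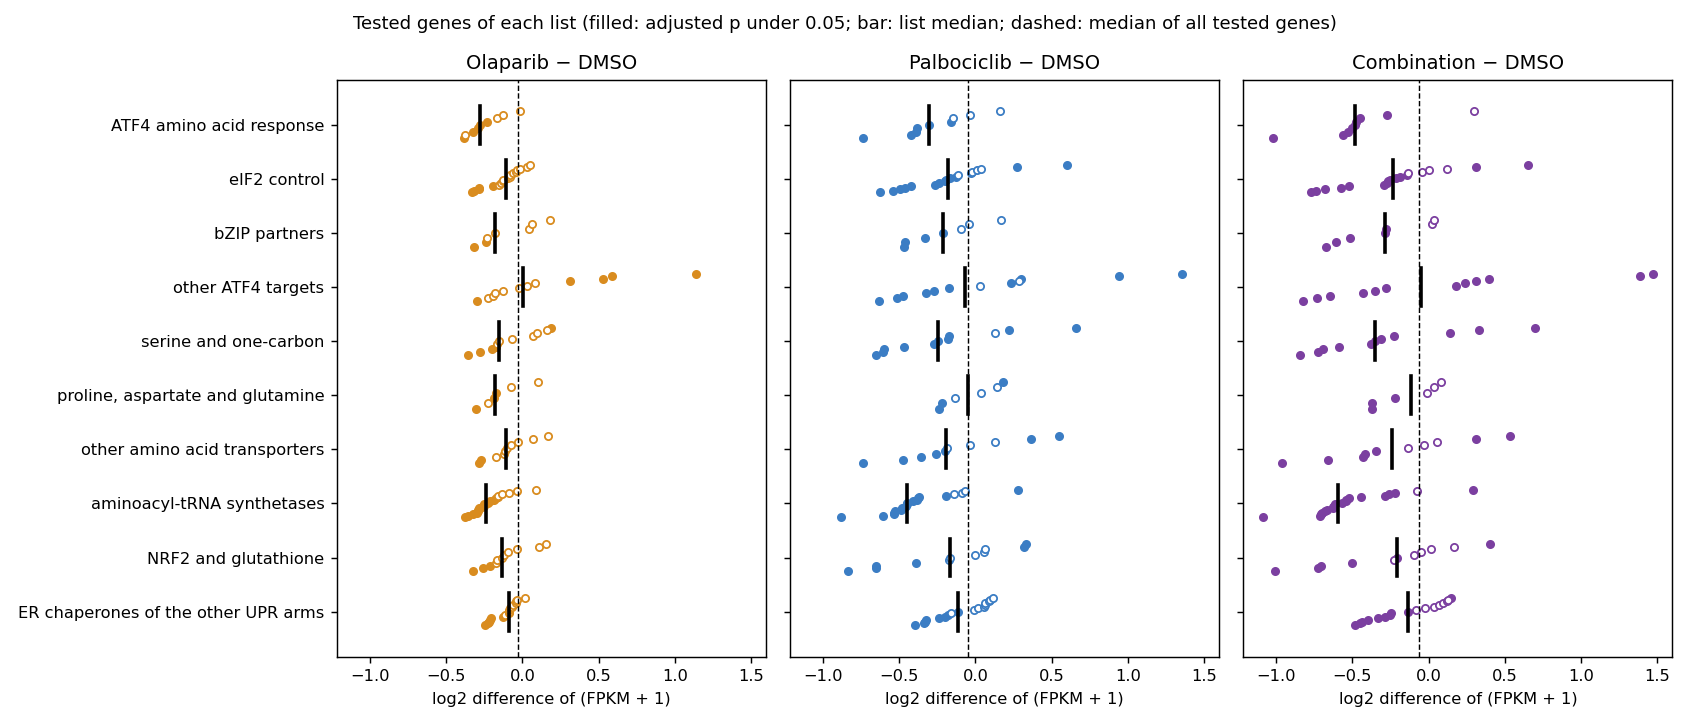
Log2 differences of (FPKM + 1) against DMSO (horizontal axes) for the tested genes of the ATF4 amino acid response and of 9 further lists, in panels for olaparib, palbociclib and the combination. Filled points have a limma adjusted p under 0.05, bars are list medians and the dashed line is the median of all tested genes. The synthetase median is −0.59 with the combination, and the other ATF4 targets reach from −0.82 to 1.47.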

How the data were processed

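The authors deposited 1 table of FPKM values for 31721 Ensembl genes in 8 libraries. PolyA RNA was prepared with a NEBNext Ultra RNA kit, per the labels' protocols, and CASAVA 1.8, STAR 2.5.1b and HTSeq 0.6.0 with GRCh38 and hg38 are named without role or order, per the submitters' processing notes. GENCODE v29 gave symbols, exon lengths and positions. With those lengths 90.3% of genes gave whole reads in every library within 0.01 reads, and with a searched length (used for DDIT3 and PHGDH) all but 3 did, so the latter are no independent check. limma 3.58.1 (R 4.3.3) was run on log2(FPKM + 1), a scale that understates changes of low genes, with 1 mean per group, all 8 libraries, a trend on expression, 4 residual and 3.01 prior degrees of freedom, and Benjamini-Hochberg adjustment over the 12443 genes with a mean of at least 1 FPKM, two-sided, at 0.05. The fit was also run on simulated counts that gave every gene the same spread setting. These libraries need not share that spread, so the run does not bear on the calls made here. The 10 genes, the further lists and the tests were chosen with earlier results of these data known. Named genes outside the 10 were, per list and treatment, the called genes with the 3 highest and 3 lowest differences. HSPA5 with palbociclib and with the combination falls outside that rule and was chosen after its values were seen. FGF21, ADM2, NUPR1 and ATF3, which were under the filter and not tested, also fall outside it and were chosen in the same way. Replicate libraries were not duplicates, differing beyond counting noise (chi-square per degree of freedom of 2.37 to 4.09). Alternatives were another pseudocount, filters, scalings, voom on recovered reads, a replicate block and leaving out each library.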

Additional observations from a re-analysis of the deposited data

How the results depend on the processing

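For the 54 log2 differences of the 9 tested genes, 451 of 477 values under 9 other settings and 393 of 432 values without single libraries kept the side of the threshold. In 2 the direction reversed with loss of the call, both under quantile normalisation: PSAT1 with palbociclib (0.0287) and ATF4 between the combination and olaparib (0.0562). The cause was not tested. The number of the 9 genes that fell with olaparib was 5, and 3 with no filter or under quantile normalisation. It was 0 to 5 without single libraries. Against olaparib, the combination had 5 lower and 1 higher, which became 3 lower with no filter and 0 higher with no filter, a filter at 0.1 FPKM, quantile normalisation, no trend, or only the groups compared. Without single libraries it had 3 to 5 lower and 0 to 1 higher. For the combination against DMSO, 0 to 1 were higher without single libraries. Against palbociclib, voom called 2 lower.

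Over all genes, the olaparib count was 1821, with 601 without a filter, 1041 with a filter at 0.1 FPKM, 1000 under quantile normalisation, 3180 with voom and 13 to 1956 without single libraries. The combination against palbociclib gave 3, with 23 without a filter, 0 with the filter at 0.1 FPKM or no trend, 17 under quantile normalisation, 12 under TPM, 289 with voom and 0 to 2 without single libraries. The departure from additivity gave 1, with 33 without a filter, 3 with the filter at 0.1 FPKM, 50 with voom, 0 with no trend or with the replicate block, and 0 to 2 without single libraries. Replicate numbers are shared between groups by number only: correlations of same-numbered deviations ran from −0.05 to 0.03, none over 0.1. The block gave 2112 genes with olaparib, 6394 with palbociclib and 7235 with the combination, and of the 9 genes CHAC1 alone changed call (combination). Where a library was left out, the lone library of its group was assumed to vary like the others. Counts of the further lists under these settings were added after the data were seen. CHAC1, DDIT3, TRIB3 and SLC7A11 rest on the fewest reads per library of the 10 genes.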

Other observations

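Of the 10 genes, the 6 with a mean above 8 FPKM (ATF4, ASNS, PSAT1, PHGDH, SLC7A5 and SLC3A2) had Pearson r over the 8 libraries between 0.55, for PSAT1 with PHGDH, and 0.98, for ASNS with PSAT1. DDIT3 had negative values with each of the other 8 tested genes, from −0.78 to −0.10. These are descriptions over 8 libraries that share 4 treatments. The protein-coding genes most like ATF4, among 10166, were SRRD (r = 0.997), TAF1B (0.995) and DDX27 (0.994). Those most like ASNS were SLC30A8 (0.993), SUPV3L1 (0.993) and LRPPRC (0.992). Those most like CHAC1 were XPNPEP3 (0.962), HABP4 (0.957) and EIF2B2 (0.947), the last a subunit of the exchange factor on which phosphorylated eIF2α acts.

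Several genes that are widely used as readouts of ATF4 activity were close to silent in these cells, chosen after their values were seen. FGF21 did not exceed 0.0879 FPKM in any library, ADM2 0.0214 FPKM and NUPR1 0.102 FPKM. ATF3 stood at 0.392 and 0.312 FPKM with olaparib, 0.338 and 0.318 FPKM with palbociclib and 0.283 and 0.238 FPKM with the combination, against 0.563 and 0.436 FPKM in DMSO, with all treated libraries below both DMSO libraries and no test under the filter.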
